A study of Homo sapiens with 12 samples.

Results

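AXIN2, NKD1, NKD2, RNF43, ZNRF3 and SP5 were examined as the genes through which WNT signalling restrains itself inside the cell and at its membrane. They were chosen by name for that role, and the deposited table of 25528 gene rows held all 6. The samples were 12 RNA-seq libraries, in 4 groups of 3, from HT-29 cells, a cultured line of colon adenocarcinoma origin whose genotype is labelled APC mutant. Cells infected with lentivirus carrying an open reading frame for GFP (control) or CTNNB1 were collected 2 days after infection. Cells infected with lentivirus carrying a hairpin, either the control shNT1 or shRNA-APC (here shAPC), were harvested 1 day after doxycycline (2 µM), which both hairpin groups received. All 12 libraries thus share the mutant APC background and a lentiviral infection, and no uninfected library was analysed here. CTNNB1 against GFP is called the CTNNB1 arm and shAPC against shNT1 the shAPC arm. Vector, collection day and doxycycline differ between the arms and cannot be told apart from other differences between them. The labels do not say whether replicates were separate cultures or infections, so p-values measure the spread between these libraries, which may be technical.

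In WNT signalling a destruction complex built on APC and an axin scaffold, with the kinases GSK3 and casein kinase 1, targets beta-catenin, which CTNNB1 encodes, for destruction by the proteasome. When the pathway is active, frizzled receptors, LRP5 or LRP6 and dishevelled disable the complex, and beta-catenin enters the nucleus and drives transcription with TCF/LEF factors. Some of the genes it drives act back on the pathway. AXIN2 is an inducible axin scaffold of the destruction complex. NKD1 and NKD2 bind dishevelled. RNF43 and ZNRF3 are transmembrane ubiquitin ligases that remove frizzled receptors from the cell surface, and R-spondins acting through LGR receptors neutralise them. SP5 is a zinc-finger transcription factor that represses WNT target genes. In the intestinal crypt this pathway maintains stem cells, and APC is the gene most often lost at the start of colorectal tumours.

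In GENCODE v29 (GRCh38, the build that the submitters' processing notes name as hg38) the genes lie apart. AXIN2 (ENSG00000168646) spans chr17:65528563-65561647 on the minus strand and RNF43 (ENSG00000108375) chr17:58352500-58417595 on the minus strand. NKD1 (ENSG00000140807) spans chr16:50548330-50649249, NKD2 chr5:1008829-1038943, ZNRF3 (ENSG00000183579) chr22:28883592-29057487 and SP5 (ENSG00000204335) chr2:170715351-170718078, all on the plus strand. Exons of NKD1 overlap an antisense gene, AC007608.1. Exons of AXIN2 overlap the same-strand gene AC004805.1, and those of RNF43 overlap SUPT4H1, AC004687.2 and the antisense gene TSPOAP1-AS1. How the authors' counting divided reads in such overlaps is not given in the sources used here.

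RefSeq promoter windows (GRCh38.p14), each running from 250 bases before to 50 bases after a start site, were found for SP5, NKD2 and RNF43, the last with 2 start sites. AXIN2, NKD1 and ZNRF3 had no entry. The windows were searched on both strands for the TCF/LEF motif as CTTTGAT (reverse complement ATCAAAG) or CTTTGAA (reverse complement TTCAAAG). The upstream part of every window found is shown, with no choice by RNA change. Capitals mark motif matches, each sequence is given 5′ to 3′ on the gene's own strand, and it stops before the first annotated exon. The SP5 stretch is chr2:170715087-170715336 on the plus strand and that of NKD2 chr5:1008552-1008801 on the plus strand. For RNF43 they are chr17:58417596-58417784 and chr17:58402722-58402971 on the minus strand.
SP5: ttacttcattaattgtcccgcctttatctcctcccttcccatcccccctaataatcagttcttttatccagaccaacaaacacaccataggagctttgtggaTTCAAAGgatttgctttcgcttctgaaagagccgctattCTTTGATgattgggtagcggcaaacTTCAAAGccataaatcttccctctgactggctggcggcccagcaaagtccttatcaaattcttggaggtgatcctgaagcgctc
NKD2: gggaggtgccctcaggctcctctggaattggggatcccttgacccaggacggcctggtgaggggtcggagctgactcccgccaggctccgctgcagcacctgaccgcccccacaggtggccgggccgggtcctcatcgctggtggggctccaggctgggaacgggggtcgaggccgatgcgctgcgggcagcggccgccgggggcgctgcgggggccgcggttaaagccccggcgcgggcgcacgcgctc
RNF43, upstream start site: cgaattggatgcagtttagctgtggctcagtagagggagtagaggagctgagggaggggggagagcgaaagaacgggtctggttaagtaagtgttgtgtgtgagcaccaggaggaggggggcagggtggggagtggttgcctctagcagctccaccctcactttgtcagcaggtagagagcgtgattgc
RNF43, downstream start site: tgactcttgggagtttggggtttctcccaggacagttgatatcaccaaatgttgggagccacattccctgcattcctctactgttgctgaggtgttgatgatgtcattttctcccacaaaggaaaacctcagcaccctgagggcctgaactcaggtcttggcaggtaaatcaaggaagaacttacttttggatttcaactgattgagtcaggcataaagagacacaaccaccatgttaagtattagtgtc
The SP5 window held 3 matches, whose first bases lay at -148, -109 and -84 relative to the start site, while the windows of NKD2 and both windows of RNF43 held 0. Of the 35116 windows of the same length in the table, 6.86% held at least 1 match and 9 (0.026%) held 3 or more. That cut of 3 is the SP5 count itself. The shorter core CAAAG was in 3 of these 4 windows, those of SP5 and RNF43, and in 47.5% of all windows. A match describes letters in this window only, and no factor binding was measured. The printed SP5 stretch was 45.6% G and C with 6 CG pairs, against 75.6% and 26 CG pairs for NKD2, of equal length.

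The perturbed genes and the cell identity were checked first. APC was listed at 15.8, 16.1 and 17.3 TPM (a transcript level scaled for gene length and for the library's total) in shNT1 and at 6.59, 5.91 and 5.48 TPM in shAPC. CTNNB1 RNA was 144, 145 and 150 TPM in GFP and 165, 160 and 156 TPM in the CTNNB1 group. The difference of 0.13 missed the threshold (limma adjusted p = 0.059), though it was called with quantile normalization (0.12, limma adjusted p = 0.048). TPM does not separate the construct from the endogenous transcript. Of 10 colon epithelial markers fixed for the check, 7 or 8 averaged at least 1 TPM in each group, and the epithelial adhesion gene EPCAM averaged 1450 to 1750 TPM. Their summed level was 10200 to 10400 TPM in GFP, 11800 to 11900 in CTNNB1, 8280 to 9960 in shNT1 and 8290 to 9160 in shAPC. CDX1 and CDX2, transcription factors that define intestinal epithelium, stayed under 1 TPM in every group. Of 10 markers of blood, stromal, endothelial and other cells, CD68 alone averaged 1 TPM or more, and CD3E and ALB were listed at 0. The sum over those 10 was 27.2 to 28 TPM in GFP, 12.7 to 14.6 in CTNNB1, 13.8 to 15.2 in shNT1 and 6.95 to 9.29 in shAPC. Nearly all of it was CD68, which averaged 27 TPM in GFP, 13.2 in CTNNB1, 13.8 in shNT1 and 7.51 in shAPC. The sum thus moved with both perturbations through CD68, and its part in the results was not tested. Between 14756 and 16186 genes were above 0 per library. TPM keeps no read depth, so no detection floor can be given. The test was limma on log2(TPM + 1) for genes averaging at least 1 TPM over the libraries compared, with a call at a Benjamini-Hochberg adjusted p under 0.05.

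All 6 genes were higher in each perturbed group than in its control, with no overlap between the libraries. Such separation upward held for 30.2% of all genes tested in the CTNNB1 arm and 14.5% in the shAPC arm. NKD2 was not among these genes, and NKD1 was there only through its perturbed libraries, so neither separation can be set against those shares. Of the 4 genes that averaged at least 1 TPM in both groups of each arm, AXIN2, ZNRF3 and SP5 were called higher in both arms, and RNF43 was called higher in the shAPC arm only. NKD1 was also called in both arms, but it passed the filter only through the perturbed libraries, so it had to differ and is not counted here. NKD2 averaged under 1 TPM in every group and was fitted only without the filter. The background was broad, with 23.5% of all genes called in either direction in the CTNNB1 arm and 22.1% in the shAPC arm. Taken by direction, 16.3% of 11624 were called higher and 7.16% lower in the CTNNB1 arm, and 7.24% of 11834 were called higher and 14.9% lower in the shAPC arm. These splits depend on scaling. With median-ratio scaling, 1252 genes were called higher and 1461 lower in the CTNNB1 arm (1898 and 832 with TPM as deposited), and 1264 higher and 1589 lower in the shAPC arm (857 and 1758).

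**Figure D1:**
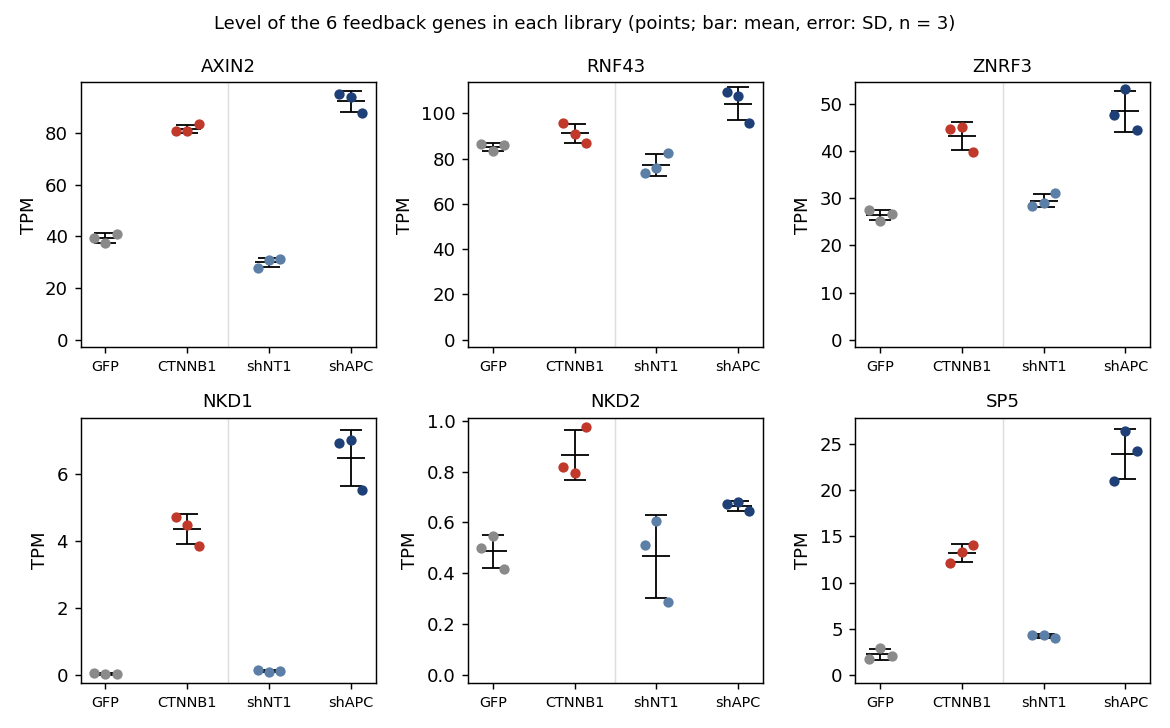
Level in TPM (vertical axis) of each feedback gene in the GFP, CTNNB1, shNT1 and shAPC libraries. Points are libraries, the long bar is the mean and the error bar the SD (n = 3). Perturbed libraries lie above their controls in all 6 panels, from 87 against 86.6 TPM at the nearest for RNF43 in the CTNNB1 arm to NKD1, which is under 0.15 TPM in every control library.

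AXIN2, the inducible scaffold, was at 39.4, 37.3 and 41 TPM in GFP and at 80.7, 80.7 and 83.3 TPM in the CTNNB1 group. In the hairpin libraries it was at 27.8, 30.7 and 31.1 TPM in shNT1 and at 95, 93.8 and 87.6 TPM in shAPC. The perturbed libraries were high throughout and no groups overlapped. The change in log2(TPM + 1) was 1.04 (SE 0.05, limma adjusted p = 3e-06) in the CTNNB1 arm and 1.59 (SE 0.06, limma adjusted p = 3.5e-07) in the shAPC arm. By p-value AXIN2 ranked 2 of 11834 genes in the shAPC arm and 13 of 11624 in the CTNNB1 arm. On the linear scale the mean gained 42.3 TPM in the CTNNB1 arm and 62.3 TPM in the shAPC arm. The order of the group means was shAPC, CTNNB1, GFP, shNT1, and each neighbouring pair was separated by more than the larger SD without overlap. The wider step in the shAPC arm therefore came with both a lower control and a higher perturbed level.

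RNF43 was the most abundant of the 6 genes in every group. It was at 86.6, 83.1 and 86.1 TPM in GFP and at 95.5, 91 and 87 TPM in the CTNNB1 group, where the lowest library barely cleared the highest control. In shNT1 it was at 73.5, 75.6 and 82.4 TPM and in shAPC at 110, 108 and 95.8 TPM. The change was 0.10 in the CTNNB1 arm (SE 0.05, 95% interval -0.02 to 0.21, limma adjusted p = 0.2) and 0.43 in the shAPC arm (SE 0.07, limma adjusted p = 0.0016). Only the shAPC change passed the test. SUPT4H1, which shares exonic sequence and strand with RNF43, changed by 0.12 (limma adjusted p = 0.082) and 0.24 (limma adjusted p = 0.026) in the same arms. Its part in the RNF43 values was not tested. The order of the group means was again shAPC, CTNNB1, GFP, shNT1.

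ZNRF3, the paralogous ligase, was at 27.4, 25.2 and 26.6 TPM in GFP and at 44.7, 45.1 and 39.7 TPM in the CTNNB1 group. It was at 28.4, 29 and 31 TPM in shNT1 and at 47.6, 53.2 and 44.6 TPM in shAPC. Both perturbed groups were high, and they overlapped each other. The change was 0.69 (SE 0.07, limma adjusted p = 9.2e-05) in the CTNNB1 arm and 0.70 (SE 0.07, limma adjusted p = 0.00014) in the shAPC arm. ZNRF3 thus rose 1.64-fold in mean TPM in each arm. Its controls were ordered the other way from those of AXIN2 and RNF43, with shNT1 (29.5 ± 1.4 TPM, SD, n = 3) above GFP (26.4 ± 1.1 TPM, SD, n = 3).

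NKD1 was close to 0 in the controls, at 0.0759, 0.0208 and 0.0362 TPM in GFP and at 0.147, 0.092 and 0.121 TPM in shNT1. It was at 4.71, 4.46 and 3.85 TPM in the CTNNB1 group and at 6.9, 7 and 5.52 TPM in shAPC. No perturbed library was near a control. The change in log2(TPM + 1) was 2.35 (SE 0.11, limma adjusted p = 2.1e-06) in the CTNNB1 arm and 2.73 (SE 0.12, limma adjusted p = 6.1e-07) in the shAPC arm. Since NKD1 entered the fit only through its perturbed libraries, these p-values describe it and are not counted as support. The size rests on the pseudocount, since the control values are far under 1 TPM. With 0.1 in place of 1 the changes were 4.96 and 4.90, and the authors' deposited tables give log2 fold changes of 6.54 and 5.74.

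NKD2, the paralog of NKD1, was at 0.498, 0.545 and 0.415 TPM in GFP and at 0.819, 0.796 and 0.977 TPM in the CTNNB1 group. It was at 0.51, 0.604 and 0.287 TPM in shNT1 and at 0.672, 0.68 and 0.645 TPM in shAPC. The perturbed groups were higher by a small margin, and the GFP and shNT1 libraries overlapped. Without the filter, where 8.75% of 17849 genes were called higher in the CTNNB1 arm and 4.12% of 17968 in the shAPC arm, the change was 0.33 (SE 0.06, limma adjusted p = 0.019) and 0.19 (SE 0.08, 95% interval -0.02 to 0.39, limma adjusted p = 0.22). The call in the CTNNB1 arm was lost without any single GFP replicate or without CTNNB1 replicate 2 (limma adjusted p from 0.051 to 0.069 in these 4 fits). With 0.1 in place of 1 as the pseudocount the changes were 0.72 and 0.48, and without shNT1 replicate 3 the change in the shAPC arm was 0.10. NKD2 was the one gene of the 6 with its highest mean in the CTNNB1 group.

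SP5, the transcriptional repressor, was at 1.74, 2.9 and 2.06 TPM in GFP and at 12.1, 13.4 and 14 TPM in the CTNNB1 group. It was at 4.39, 4.31 and 4.01 TPM in shNT1 and at 21, 26.3 and 24.3 TPM in shAPC. All 4 groups were separate from each other, in the order shAPC, CTNNB1, shNT1, GFP. The change was 2.14 (SE 0.13, limma adjusted p = 7.6e-06) in the CTNNB1 arm and 2.24 (SE 0.09, limma adjusted p = 3.5e-07) in the shAPC arm. In each arm SP5 ranked 4 by rise in log2(TPM + 1), a scale that understates changes of weakly expressed genes. In mean TPM its change was 5.89-fold and 5.64-fold. Both hairpin groups stood above their counterparts by a like factor, 1.90 for shNT1 over GFP and 1.82 for shAPC over CTNNB1, a contrast that vector, day and doxycycline share. The SP5 promoter window printed above held 3 TCF/LEF motif matches, whose part in the rise was not tested.

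**Figure D2:**
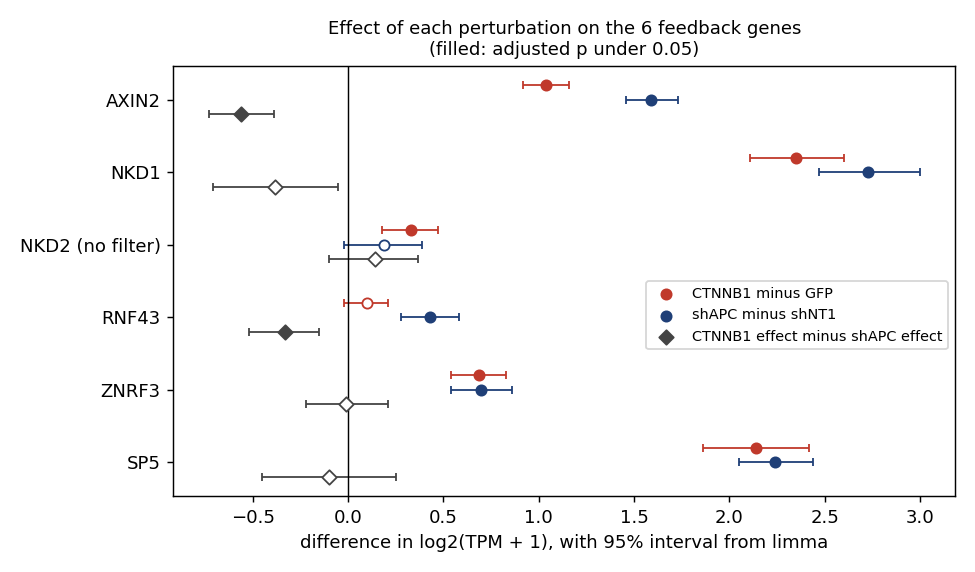
Difference in log2(TPM + 1) for each feedback gene (horizontal axis) with its 95% interval from limma, for CTNNB1 minus GFP (red circles), shAPC minus shNT1 (blue circles) and the CTNNB1 effect minus the shAPC effect (grey diamonds). Filled symbols have an adjusted p under 0.05, and NKD2 comes from the fit without a filter. The grey diamonds of AXIN2 (-0.56) and RNF43 (-0.33) are filled.

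The size of each rise was compared between arms by a contrast in a single fit of all 12 libraries, in which 2.76% of 11741 genes were called negative (a smaller rise or larger fall in the CTNNB1 arm) and 13.3% positive, 16.1% in all. AXIN2 and RNF43 were called, both negative, so each rose by less in the CTNNB1 arm. AXIN2 differed by -0.56 (SE 0.08, limma adjusted p = 0.00057) and RNF43 by -0.33 (SE 0.09, limma adjusted p = 0.02). The RNF43 call was lost without GFP replicate 1 (-0.32, limma adjusted p = 0.05). For ZNRF3 the difference was -0.01 with a 95% interval of -0.22 to 0.21 (limma adjusted p = 0.97), and for SP5 -0.10 with an interval of -0.45 to 0.25 (limma adjusted p = 0.71). NKD1 differed by -0.38 (95% interval -0.71 to -0.05, limma adjusted p = 0.1), and by 0.06 when 0.1 was added before the logarithm. Without the filter, where 7.54% of 18804 genes were called and 5.93% were positive, NKD2 differed by 0.14 (95% interval -0.10 to 0.37, limma adjusted p = 0.51). A missed threshold does not show that the arms acted alike. The median difference over all genes was 0.108 with TPM as deposited and 0.004 with median-ratio scaling, under which AXIN2 differed by -0.67 and RNF43 by -0.45. With that scaling 786 genes were called positive and 651 negative, against 1561 and 324 with TPM as deposited.

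Ratios of related genes within a library do not move with library scaling. AXIN2 RNA was 1.41 times that of AXIN1, the constitutive axin, in GFP and 2.87 times in the CTNNB1 group. In the hairpin libraries the ratio went from 0.949 to 3.18, so the scaffold RNA in shNT1 was close to even between the genes. AXIN1 itself stayed between 25.6 and 33.8 TPM in all libraries (0.03, limma adjusted p = 0.79, and -0.11, limma adjusted p = 0.28). The RNF43 to ZNRF3 ratio went from 3.23 to 2.11 in the CTNNB1 arm and from 2.62 to 2.16 in the shAPC arm. The ratio was lower in every perturbed library than in any of its controls, and the perturbed groups ended near each other from different starting points. NKD1 was the lesser of the naked genes in the controls (0.0925 and 0.287 times NKD2) and the greater after perturbation (5.10 and 9.72 times). Each of these 6 differences in log2 ratio gave p = 0.1 in a two-sided exact permutation test (n = 3 against 3), the smallest p this design can reach, and adjustment over the 6 leaves it there.

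**Figure D3:**
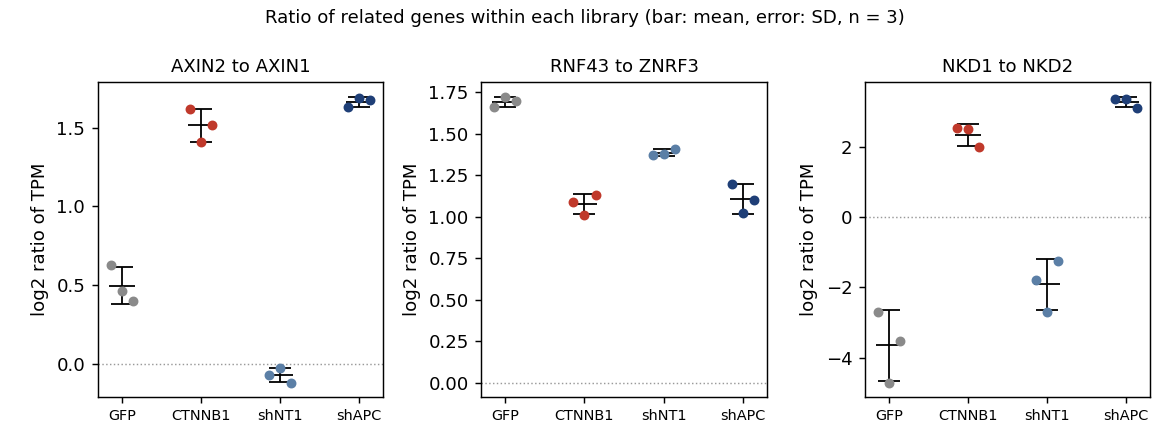
Log2 ratio of TPM within each library (vertical axis) for AXIN2 to AXIN1, RNF43 to ZNRF3 and NKD1 to NKD2, by group. Points are libraries, the bar is the mean and the error bar the SD (n = 3). The RNF43 to ZNRF3 ratio is lower in the perturbed group of both arms, with means of 1.08 in CTNNB1 and 1.11 in shAPC, while the other ratios are higher there.

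Likeness across the 12 libraries was computed for the 5 feedback genes other than NKD2, which averaged under 1 TPM. The Pearson r of log2(TPM + 1) was 0.979 between NKD1 and ZNRF3, 0.969 between NKD1 and AXIN2, and 0.964 between NKD1 and SP5. RNF43 stood lowest of the 5, between 0.746 with SP5 and 0.874 with AXIN2. These values describe 12 libraries in 4 groups that share their perturbations, so most of each r is the step between groups. NKD1 averaged at least 1 TPM only through its perturbed libraries. A high r between NKD1 and any gene that rises was thus built in, and it is not counted as support. Among 11740 other genes, those most like ZNRF3 were PTK7 (a WNT co-receptor, r = 0.989), HAS2 (0.982) and CLDN2 (0.982). PTK7 averaged 45.9 TPM in GFP, 106 in CTNNB1, 58.5 in shNT1 and 133 in shAPC, the same order of groups as ZNRF3. Those most like SP5 were KCNE3 (0.983), RETNLB (0.983) and PTK7 (0.982). For AXIN2 they were LOC400706 (0.989), TRIM24 (0.979) and the ligand gene WNT11 (0.979), and for NKD1 LOC400706 (0.993), ACSL5 (0.993) and FGFBP1 (0.988). The likest genes to RNF43 were METTL16 (0.939), PRPF6 (0.937) and EFNA4 (0.92). LOC400706 and HAS2 averaged under 1 TPM in both control groups, so like NKD1 they were included only through the perturbed libraries.

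The membrane proteins on which RNF43, ZNRF3 and the R-spondins act did not move as a block. Of 19 genes for frizzled receptors, LRP5, LRP6, LGR receptors and R-spondins, 10 were tested in the CTNNB1 arm, with 4 called higher and 1 lower and a median of 0.11 (0.06 over all genes). In the shAPC arm 11 were tested, with 2 higher and 2 lower and a median of 0.10 (-0.04 over all genes). Over all genes 16.3% were called higher and 7.16% lower in the CTNNB1 arm, and 7.24% and 14.9% in the shAPC arm. LGR5, an R-spondin receptor and stem cell marker, rose from 11.5 to 31.5 TPM (1.38, limma adjusted p = 3.8e-06) and from 12.5 to 30.4 TPM (1.21, limma adjusted p = 2.4e-05). LGR4, the more abundant R-spondin receptor here, fell from 168 to 138 TPM (-0.28, limma adjusted p = 0.0071) and from 172 to 101 TPM (-0.76, limma adjusted p = 4.6e-05). FZD2 averaged 0.392 TPM in GFP, 1.63 in CTNNB1, 1 in shNT1 and 3.42 in shAPC, and both changes (0.92 and 1.15) were called, although in the CTNNB1 arm it passed the filter only through the perturbed libraries. FZD4 was called higher in the CTNNB1 arm (0.45, limma adjusted p = 0.017) but not with quantile normalization (adjusted p = 0.051), nor without GFP replicate 3 (0.065) or CTNNB1 replicate 2 (0.067). FZD5 (-0.41, limma adjusted p = 0.0034) and LRP6 (0.33, limma adjusted p = 0.033) make up the counts in the shAPC and CTNNB1 arm respectively and were picked out after their values were seen.

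Of 18 genes for the destruction complex, for axin turnover and for dishevelled, 16 were tested in each arm. Counting both directions, 3 were called in the CTNNB1 arm, a share near the 23.5% over all genes. In the shAPC arm 4 were called, where the share over all genes was 22.1%. These 4 include APC, the hairpin's own target, whose fall the design set out to produce. That count is therefore not set against the share. In the CTNNB1 arm 3 were called higher (AMER1, GSK3B and FBXW11, by 0.25, 0.20 and 0.17), and none of these 3 calls held with quantile normalization or median-ratio scaling, or without any single GFP replicate or CTNNB1 replicate 2. AMER1 also lost its call without CTNNB1 replicate 1 or 3. In the shAPC arm APC was called lower (-1.32), as were DVL1, a dishevelled to which naked proteins bind (-0.37, limma adjusted p = 0.0038), and FBXW11 (-0.22, limma adjusted p = 0.037), a call that FBXW11 lost with either scaling and without shNT1 replicate 1 or 2 or shAPC replicate 2 or 3. RNF146, a ligase that degrades axin, was called higher there (0.37, limma adjusted p = 0.033), but the call was lost without any of the shAPC libraries (adjusted p from 0.085 to 0.098). DVL1 was also lower in the CTNNB1 arm but missed the threshold (-0.23, limma adjusted p = 0.061). It was called there with median-ratio scaling (-0.31, limma adjusted p = 0.04), with a joint fit of all groups (0.038) and without CTNNB1 replicate 3 (0.042). Its difference between arms was 0.14 (limma adjusted p = 0.4). List medians were 0.13 and 0.00, against 0.06 and -0.04 over all genes.

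Among 20 genes for TCF/LEF factors, their cofactors and SP factors, 13 were tested in each arm. In the CTNNB1 arm 4 were called higher and 0 lower, with a median of 0.11 (over all genes 16.3%, 7.16% and 0.06). In the shAPC arm 2 were higher and 1 lower, with a median of 0.02 (over all genes 7.24%, 14.9% and -0.04). TCF7 rose from 25.6 to 40 TPM (0.63, limma adjusted p = 0.00019) and from 30.2 to 44.6 TPM (0.54, limma adjusted p = 0.00077), and the corepressor TLE3 was called higher in both arms (0.35 and 0.29), though in the shAPC arm not without shNT1 replicate 1 (limma adjusted p = 0.071), shAPC replicate 1 (0.059) or shAPC replicate 2 (0.069). TCF7L2 was called lower in the shAPC arm (-0.31, limma adjusted p = 0.01) and was at 0.00 in the CTNNB1 arm. Among the relatives of SP5, SP3 (0.28, limma adjusted p = 0.012) and SP4 (0.35, limma adjusted p = 0.021) were called higher in the CTNNB1 arm, a call lost for both without GFP replicate 2. SP4 also lost it without GFP replicate 3 or CTNNB1 replicate 2. SP1, SP2 and SP6 were called in neither arm, and SP7, SP8 and SP9 were under the filter. None of the 5 relatives tested changed by as much as SP5.

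Of 20 other negative regulators of the pathway, some of them secreted, only 5 passed the filter in each arm. In the CTNNB1 arm 3 were called higher and 1 lower (over all genes 16.3% and 7.16%). In the shAPC arm 2 were higher and 1 lower (over all genes 7.24% and 14.9%). NOTUM, which inactivates WNT ligands, resembled NKD1: it averaged 0.0974 and 0.133 TPM in the controls and 1.99 and 3.54 TPM in the perturbed groups (1.43, limma adjusted p = 0.00023, and 1.99, limma adjusted p = 2.2e-05), and like NKD1 it passed the filter only through those groups. KREMEN1, a DKK1 receptor, was called higher in both arms (0.75 and 0.77), with means of 7.14 TPM in GFP, 12.7 in CTNNB1, 9.07 in shNT1 and 16.2 in shAPC. DKK1, a secreted LRP antagonist, fell from 454 to 298 TPM (-0.60, limma adjusted p = 3.5e-05) and from 448 to 211 TPM (-1.08, limma adjusted p = 6.3e-07), opposite to the 6 feedback genes. CTNNBIP1, which blocks beta-catenin from TCF, was called higher in the CTNNB1 arm only (0.52, limma adjusted p = 0.0041) and was picked out after its value was seen.

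Beside the feedback genes stood 16 other known WNT targets, a list drawn up with earlier results of these data known. In the CTNNB1 arm 11 were tested, 9 called higher and 0 lower, with a median of 0.63 (over all genes 16.3% were higher and the median was 0.06). In the shAPC arm 12 were tested, 10 called higher and 1 lower, with a median of 0.55 (over all genes 7.24% were higher and the median was -0.04). PROX1, 1 of those 10 (0.633 TPM in shNT1 and 2.34 in shAPC), passed the filter only through the shAPC libraries. The lower one was MYC (-0.19, limma adjusted p = 0.041), picked out after its value was seen. ASCL2, a stem cell transcription factor, averaged 1.95 TPM in GFP, 7.98 in CTNNB1, 1.76 in shNT1 and 12.4 in shAPC, and was called higher in both arms (1.60 and 2.28). TDGF1, a co-receptor for NODAL, averaged 1.03, 4.26, 1.99 and 7.31 TPM in the same order and was called higher in both arms (1.37 and 1.51). In log2(TPM + 1), SP5 (2.14) changed by more than any of the 11 in the CTNNB1 arm, and ASCL2 (2.28) and SP5 (2.24) were side by side in the shAPC arm. That scale understates changes from a low level. In the shAPC arm ASCL2 went from 1.76 to 12.4 TPM and SP5 from 4.23 to 23.9 TPM.

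**Figure D4:**
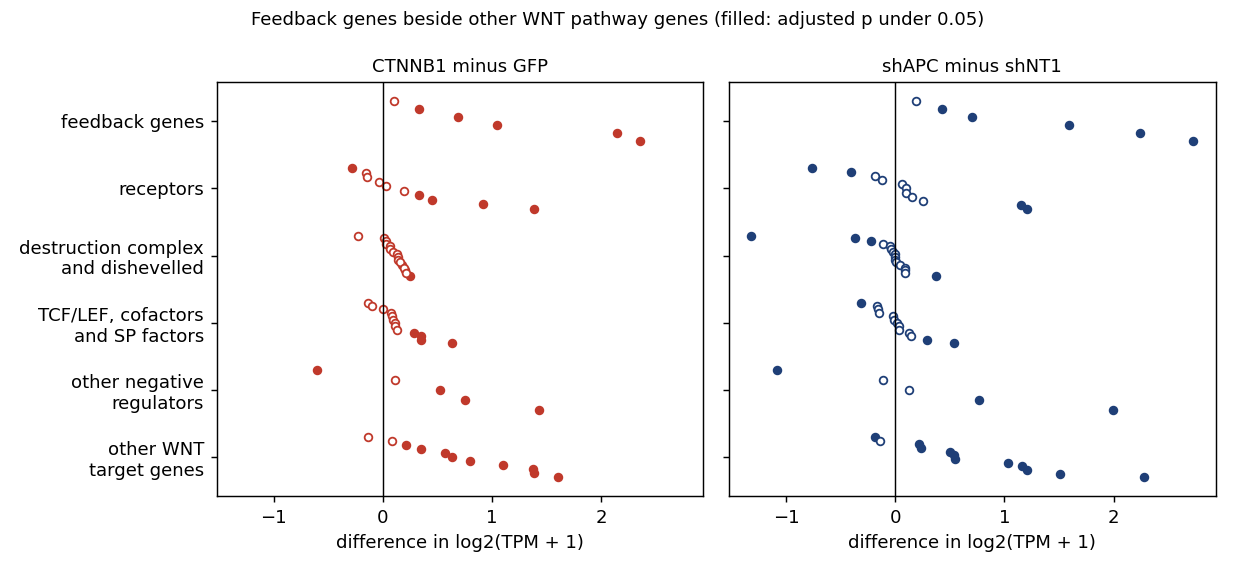
Difference in log2(TPM + 1) (horizontal axis) for the feedback genes and 5 lists of other WNT pathway genes (rows), in the CTNNB1 arm (left) and the shAPC arm (right). Each point is a gene, filled where its adjusted p is under 0.05. The feedback genes all lie right of 0, as do most other targets. In the row of the destruction complex and dishevelled, APC (-1.32), DVL1 (-0.37) and RNF146 (0.37) lie furthest from 0 in the shAPC arm.

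The authors' deposited tables give the same contrasts from another fit. In the authors' deposited table for the CTNNB1 arm, where 9.42% of 28008 rows were called and 4.82% were higher at an adjusted p under 0.05, AXIN2 changed by 0.98, SP5 by 2.52, ZNRF3 by 0.64 and NKD2 by 0.74 (adjusted p = 0.035 for NKD2). RNF43 changed there by 0.02 (adjusted p = 0.64 in the authors' deposited table). In the authors' deposited table for the shAPC arm, where 9.01% of rows were called and 4.11% were higher, AXIN2 changed by 1.67, SP5 by 2.51, ZNRF3 by 0.75 and RNF43 by 0.47 (adjusted p = 0.0043 for RNF43). NKD2 changed by 0.60 with an adjusted p of 0.3 in the authors' deposited table for that arm. The calls for all 6 genes thus fell on the same side of the threshold as those given above.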

How the data were processed

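The authors deposited TPM per gene and library, and per the submitters' processing notes used STAR 2.7.3a, build hg38 and limma. The annotation and quantification tool are not given in the sources used here. The authors' deposited limma tables hold log2 fold changes and p-values, whose model is not stated. Every per-sample column was matched to a sample by its title. Fits used limma 3.58.1 (R 4.3.3) with log2(TPM + 1) as the response, for genes averaging 1 TPM or more in the libraries compared, with a variance trend and Benjamini-Hochberg adjustment over all genes tested. Adding 1 understates changes of weakly expressed genes. Each arm was fitted on 6 libraries, and the difference between arms on 12. The fits were tested on simulated data. The feedback genes, the other lists and the tests were chosen with earlier results of these data known. Besides the 6 genes, those named are the perturbed genes, paralogs, the 3 largest called changes per list and arm, and the 3 genes most like each gene. Alternatives covered pseudocount, filter, scaling, variance trend, a joint fit, a replicate block and leaving out each library.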

Additional observations from a re-analysis of the deposited data

Results flagged for a closer look

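The genes listed have effects of different size in the 2 arms by limma's contrast between them (CTNNB1 effect minus shAPC effect, log2). Among the feedback genes these were AXIN2 (-0.56, limma adjusted p = 0.00057) and RNF43 (-0.33, limma adjusted p = 0.02, and 0.05 without GFP replicate 1). The targeted gene APC differed by 1.53. Of the other pathway genes named, ASCL2 differed by -0.69, and FZD4 (0.57), LGR4 (0.48), DKK1 (0.48), FBXW11 (0.39) and TCF7L2 (0.31) differed in the positive direction. The TCF7L2 difference was not called with median-ratio scaling (0.19, limma adjusted p = 0.13), nor without GFP replicate 1 or 2, CTNNB1 replicate 1, shNT1 replicate 1 or 2, or shAPC replicate 3 (limma adjusted p from 0.055 to 0.081). FZD4 was not called without CTNNB1 replicate 2 or shAPC replicate 3 (limma adjusted p = 0.05 and 0.061). Vector, collection day and doxycycline differ between the arms and cannot be told apart from these differences.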

How the results depend on the processing

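In the arms, AXIN2, ZNRF3 and SP5 were called higher in both, and RNF43 in the shAPC arm only, under every alternative that tested them, single libraries left out included. AXIN2 ranged from 0.97 to 1.07 in the CTNNB1 arm and from 1.55 to 1.66 in the shAPC arm. RNF43 ranged from 0.02 to 0.13 and from 0.39 to 0.51, ZNRF3 from 0.62 to 0.75 and from 0.63 to 0.77, and SP5 from 2.03 to 2.53 and from 2.17 to 2.46. Pairing was checked on log2(TPM + 1) after each gene's group mean was subtracted. These deviations correlated between same-numbered libraries at 0.21, 0.08 and 0.12 in the CTNNB1 arm and at -0.14, 0.00 and -0.21 in the shAPC arm. The numbers were therefore not taken to pair the libraries. With the replicate block 1153 genes were called lower in the shAPC arm, and the difference between arms was called for 1145 genes (919 positive) and 1 feedback gene. RNF43 (-0.33, adjusted p = 0.057) was not called there with the block, nor was NKD2 in the CTNNB1 arm (0.33, adjusted p = 0.067, no filter, an alternative chosen after seeing the data). The block changed no other call of a feedback gene. Among the other named genes it ended the calls of FBXW11 and TLE3 in the shAPC arm (adjusted p = 0.058 and 0.05). With the block DVL1 was called lower in the CTNNB1 arm (-0.23, adjusted p = 0.031). Median-ratio scaling gave 1252 higher and 1461 lower calls in the CTNNB1 arm and 786 positive and 651 negative ones between arms. Quantile normalization gave 1339 higher calls in the shAPC arm, and 792 positive and 610 negative ones between arms. Leaving out 1 library gave 1499 to 3190 calls in the CTNNB1 arm (976 to 2084 higher, 503 to 1151 lower), 1484 to 2252 in the shAPC arm (550 to 853 higher, 909 to 1577 lower) and 995 to 2143 between arms (797 to 1835 positive, 198 to 332 negative, 1 to 2 feedback genes). Counts dropped by more than 1.5 times in the CTNNB1 arm without GFP replicate 1 (1617), 2 (1499) or 3 (1705) or CTNNB1 replicate 2 (1760), and in the shAPC arm without shAPC replicate 2 (1646) or 3 (1484). Between arms they did so without GFP replicate 1 (1092) or 2 (995) or shAPC replicate 2 (1246) or 3 (1021). RNF43 then differed between arms by -0.39 to -0.30, and NKD2 changed by 0.28 to 0.36 in the CTNNB1 arm. Its call was lost without GFP replicate 1 (0.33), 2 (0.36) or 3 (0.29) or CTNNB1 replicate 2 (0.35). The 5-letter core CAAAG was in 47.5% of promoter windows and in 3 of the 4 windows of the feedback genes. The cause of these shifts was not tested. Depth is unknown, which limits NKD1 in the controls and NKD2 throughout.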

Other observations

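The library shAPC replicate 3 was the lowest of its group for 5 of the 6 feedback genes, SP5 being the exception. APC was also lowest in that library (5.48 TPM, against 6.59 and 5.91 TPM in the others). No other library was the lowest of its group for more than 4 of the 6.

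The authors' deposited tables pair NKD2 with the identifier ENSG00000276920, while GENCODE v29 gives ENSG00000145506 for the NKD2 gene on the primary assembly of chromosome 5.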
